A study of Drosophila melanogaster with 12 samples.

Results

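CLAMP and CP190 binding was compared by chromatin immunoprecipitation and sequencing within the same RNA interference condition, Kc167 cells treated with double-stranded RNA against CP190 (dsCP190). Kc167 is an embryo-derived Drosophila melanogaster line labelled as female. Each dsCP190 culture received 12 µg of the RNA by nucleofection and was kept for 6 days, so every library of both antibodies carries the knockdown. The comparison used 4 of the 12 samples of the series, 2 precipitated with antibody against CLAMP and 2 with antibody against CP190, at 5 µg of antibody and with chromatin of 200 to 500 bp. Mock cells, which went through nucleofection without RNA, gave 4 further libraries that are set beside the results, and the 4 input samples were not analysed here. Nothing in the labels tells if the replicates were grown separately, so p-values measure the spread between these libraries only, which may be technical. The protein remaining after knockdown was not measured in these data, and a peak list of binding cannot check the identity of the cell line.

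A reproducible region was the union of overlapping peaks of 1 antibody with a peak in both of its dsCP190 lists. The summit of a region was the mean of the summits of its strongest peak in each list. There were 827 CLAMP regions of the 2487 called in either list (33.3%), and 1706 CP190 regions of 3445 (49.5%). Of the CLAMP regions 99.6% overlapped a reproducible mock region of the same antibody, and of the CP190 regions 98.2% did.

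CLAMP recognises GA-rich DNA through its zinc fingers, opens chromatin and takes part in recruiting the dosage compensation complex to the male X chromosome. CP190 is a zinc finger and BTB domain protein of insulator complexes. It is brought to DNA largely by partner proteins such as BEAF-32, CTCF and Su(Hw), and is known at the promoters of many broadly expressed genes.

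The CLAMP lists held 2468 and 901 peaks, and the CP190 lists 2047 and 3138. The second CLAMP list was much the shortest of the 4, and the groups overlapped in number (mean 1684.5 ± 1108 against 2592.5 ± 771 peaks, SD, n = 2 each; two-sided exact permutation p = 0.667). An exact test of 2 lists against 2 cannot give a p below 0.333. The median number of fragments at a summit, recovered from the fold enrichment and p-value of each peak, was 45 and 46 in the CLAMP lists and 44 and 43 in the CP190 lists. The background at peaks that overlapped between lists, recovered from the same values, was 1.05 times as high in the first CLAMP list as in the second. The control of peak calling is not given, so this background cannot be read as the depth of the precipitated libraries. Against the CP190 lists the CLAMP background ratio was 0.676 to 0.880, so the CLAMP background was the lower. The part of depth in the results was not tested.

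CP190 peaks lay mainly at the ends of genes and CLAMP peaks mainly inside them. A gene end here is within 500 bp of either annotated end of 1 of 13922 protein-coding genes. The annotation used gives neither strand nor exons, so starts and 3′ ends are counted together and exons are not told from introns. Peaks at gene ends made up 33.2% and 29.5% of the CLAMP lists and 64.3% and 69.2% of the CP190 lists. The antibodies did not overlap and differed by far more than the replicates did (31.4% ± 2.59 against 66.8% ± 3.45, SD, n = 2 each; two-sided exact permutation p = 0.333, the smallest possible). Inside genes lay 55.1% and 54.6% of CLAMP peaks against 22.5% and 19.4% of CP190 peaks, again without overlap (n = 2 each; exact permutation p = 0.333). The median distance from a summit to the nearest gene end was 1232.5 and 1273 bp for CLAMP and 183 and 141 bp for CP190. Mock lists kept the same order, with 35.1% and 36.5% of CLAMP peaks and 60.9% and 60.1% of CP190 peaks at gene ends.

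**Figure D1:**
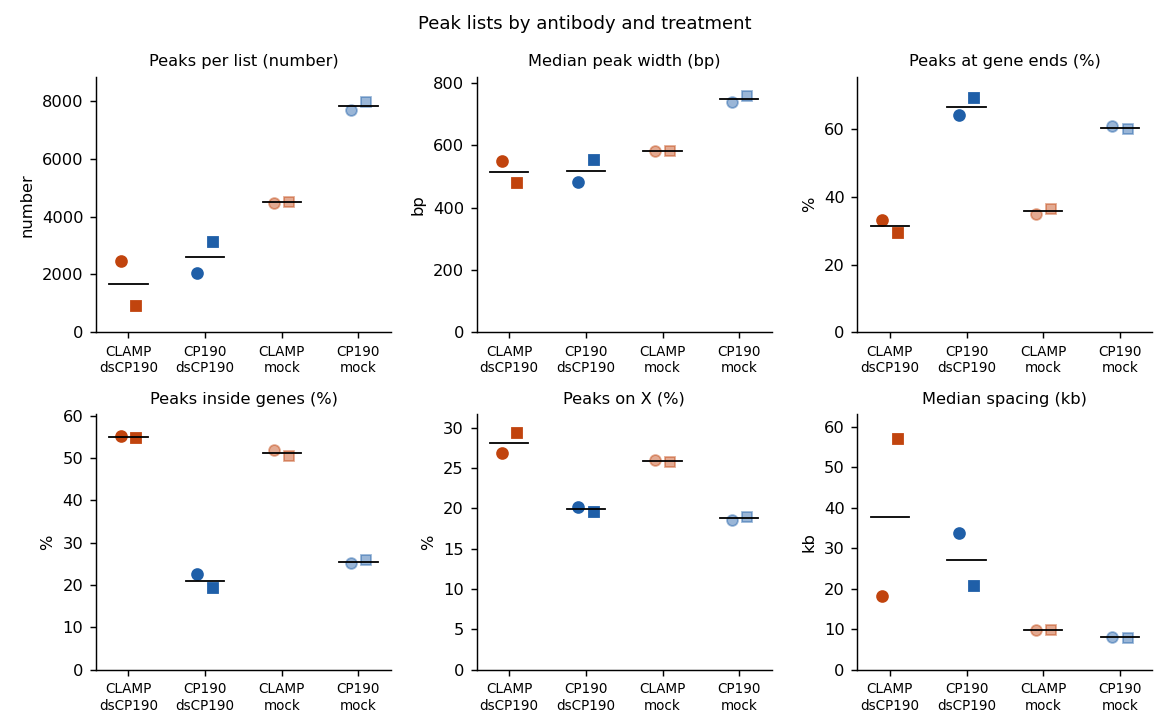
Each point is 1 peak list, for CLAMP and CP190 in dsCP190 and mock cells, with the bar at the mean of the 2 lists; the axes give the measure named above each panel in its own unit. In dsCP190 cells the antibodies separate in the share of peaks at gene ends (33.2% and 29.5% against 64.3% and 69.2%) and on X, and overlap in peak number, width and spacing.

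Reproducible regions held the same contrast. Gene ends held 257 of 827 CLAMP regions (31.1%, Wilson 95% interval 28.0 to 34.3) and 1180 of 1706 CP190 regions (69.2%, 66.9 to 71.3), where 15.1% of the bases lie at gene ends. Intervals throughout cover counting error only. Inside genes lay 53.7% of CLAMP regions and 19.1% of CP190 regions, against 56.6% of bases. CLAMP regions were thus near the share of bases inside genes, and CP190 regions well below it. CP190 gene-end regions also sat more often where genes abut. The ends of 2 or more genes were within reach of 647 of 1180 CP190 gene-end regions (54.8%) and of 42 of 257 CLAMP gene-end regions (16.3%). In mock cells the shares were 62.4% for CP190 and 33.2% for CLAMP. The share of bases for this measure was not computed.

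CLAMP regions were more often on X than CP190 regions. The X chromosome held 26.8% and 29.3% of the peaks in the CLAMP lists and 20.2% and 19.5% in the CP190 lists, with no overlap between antibodies (28.1% ± 1.75 against 19.9% ± 0.453, SD, n = 2 each; two-sided exact permutation p = 0.333). Among reproducible regions it held 236 of 827 for CLAMP (28.5%, 25.6 to 31.7) and 346 of 1706 for CP190 (20.3%, 18.4 to 22.3), and 17.6% of the bases of the 6 chromosome arms are on X. Mock lists gave 26.0% and 25.7% for CLAMP and 18.6% and 18.9% for CP190. On the autosomal arms 2L, 2R and 3L the CLAMP shares were 14.6%, 16.2% and 17.7%, each with an interval below the share of bases (17.5%, 18.9% and 21.0%). On 3R the share was 22.2% (19.5 to 25.2) beside 24.0% of bases. The small chromosome 4 had 6 CLAMP and 10 CP190 regions.

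Peak width and spacing did not separate the antibodies across lists. Median widths were 551 and 478 bp for CLAMP and 483 and 554.5 bp for CP190 (n = 2 each; exact permutation p = 0.667), whereas mock CP190 peaks were wider (741 and 759 bp) than mock CLAMP peaks (583 and 581 bp). The median width of reproducible regions was 797 bp for CLAMP (95% interval 773 to 819) and 744.5 bp for CP190 (730 to 764). With every list cut to 901 peaks the order turned, to 828 and 933 bp. The median spacing of neighbouring peaks was 18197 and 56967 bp for CLAMP and 33638 and 20579.5 bp for CP190 (n = 2 each; exact permutation p = 1). The difference in mean spacing, CLAMP minus CP190, changed sign to -21629 bp in lists of equal length and to -8911.75 bp without CLAMP replicate 2. Although fewer, CLAMP regions had another region of the same antibody within 5 kb in 21.3% of cases (18.6 to 24.2), against 16.5% (14.8 to 18.3) for CP190. In mock cells the order was the other way, at 51.4% (49.7 to 53.0) for CLAMP and 54.3% (53.1 to 55.4) for CP190. The widest CLAMP region spanned 3532 bp (2R:9551653-9555184, dm6) and the widest CP190 region 2878 bp (2L:539946-542823). Neither was at a gene end.

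The antibodies marked largely different places. Of the CLAMP regions 165 (20.0%, 17.4 to 22.8) overlapped a reproducible CP190 region, 127 more met a CP190 peak in some list, and 535 (64.7%) met none. Of the CP190 regions 169 (9.91%, 8.58 to 11.4) overlapped a reproducible CLAMP region and 1291 (75.7%) met no CLAMP peak. The nearest CP190 summit lay a median of 11680 bp from a CLAMP summit, and the nearest CLAMP summit 40284 bp from a CP190 summit. Without CLAMP replicate 2 the share of CP190 regions that overlapped CLAMP was 24.3%. In mock cells 42.3% of CLAMP regions and 20.6% of CP190 regions overlapped.

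CLAMP regions that overlapped CP190 were more often at gene ends than CLAMP regions with no CP190 peak, 45.5% (38.05 to 53.07) against 24.5% (21.0 to 28.3). They were also wider, at a median of 1035 bp against 723 bp. An overlap of 1 bp counted, which a wider region meets more readily, and the part of this in the width was not tested. CP190 regions showed no such gap in location, with 66.9% and 68.0% at gene ends. They differed by chromosome: X held 28.4% (22.1 to 35.6) of the CP190 regions that overlapped CLAMP and 17.7% (15.7 to 19.8) of those with no CLAMP peak. For CLAMP the corresponding X shares were 29.1% and 27.9%.

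Strength is the percentile of a region's fold enrichment within its own list, averaged over the 2 lists. It did not order the CLAMP shares at gene ends steadily. From the weakest to the strongest quintile of CLAMP regions the share at gene ends was 22.9%, 24.2%, 38.2%, 33.9% and 36.1%. For CP190 it was 72.2%, 73.0%, 69.8%, 66.0% and 64.8%, so it fell from the second quintile on. The intervals of the weakest and the strongest quintile were 17.2 to 29.9 and 29.2 to 43.7 for CLAMP, which barely met. For CP190 they were 67.2 to 76.7 and 59.6 to 69.7. An overlap of 2 intervals does not measure a difference, and the differences between quintiles were not tested. The strongest CP190 quintile had 27.0% of its regions on X (22.5 to 31.9), against 15.5% to 20.5% in the other quintiles, whose intervals reach up to 25.1%. The overlap with CLAMP was highest in the weakest CP190 quintile, at 17.3% (13.6 to 21.6), and lowest in the third and the fourth quintile, at 6.16%. For CLAMP it was lowest in the weakest quintile, at 11.4%.

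**Figure D2:**
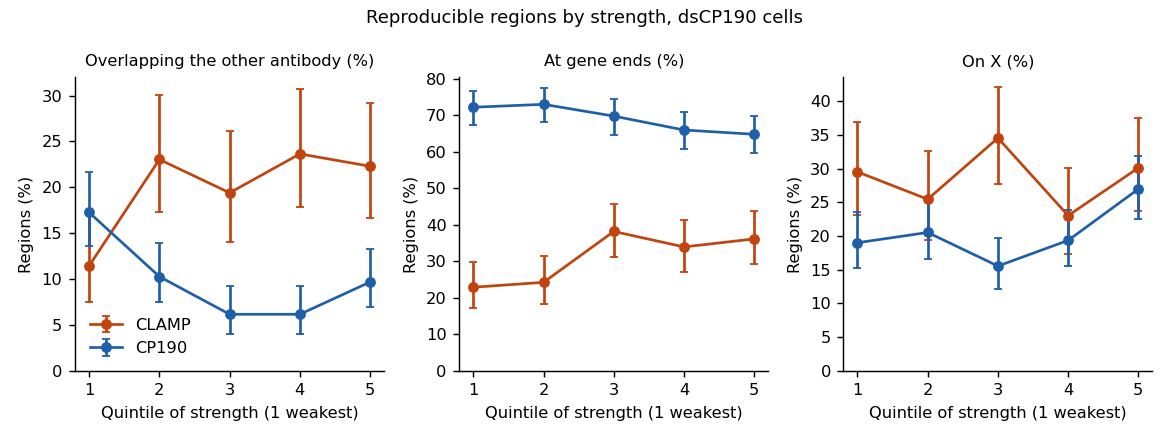
Share of reproducible dsCP190 regions (percent, with 95% Wilson intervals) that overlap the other antibody, lie at gene ends or lie on X, by quintile of strength from weakest to strongest. CP190 overlap is highest in the weakest quintile (17.3%), and CP190 stays above CLAMP at gene ends in every quintile.

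Overlapping regions were not centred on the same base in most cases. The 170 overlapping pairs had a median summit distance of 361 bp (95% interval 250 to 496), with 52 pairs (30.6%) within 100 bp and 71 (41.8%) over 500 bp apart. The median was 235.5 bp without CLAMP replicate 1, 210 bp without CLAMP replicate 2 and 176 bp without CP190 replicate 2, and 225.5 bp for 1582 mock pairs. In pairs over 500 bp apart, the CLAMP summit was at a gene end in 18 of 71 (25.4%, 16.7 to 36.6). The CP190 summit was at a gene end in 56 of the 71 (78.9%, 68.0 to 86.8). These intervals hold the shares of all reproducible regions, 31.1% for CLAMP and 69.2% for CP190. Within 100 bp the shares were 51.9% and 53.8%. Summits that close mostly fall in the same class by construction, as the gene-end window is 500 bp.

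In close pairs CLAMP regions ranked high in their lists and CP190 regions low, an order that depended on the second CLAMP list. Within 100 bp the median percentile of strength was 79.1 for CLAMP and 33.2 for CP190, against 64.4 and 62.0 in pairs over 500 bp apart. In close mock pairs it was 49.2 and 59.3. The gap in close pairs was 45.9 percentile points, and without CLAMP replicate 2 it was -6.08. Of the 52 CP190 regions in close pairs, 12 (23.1%, 13.7 to 36.1) met no CP190 peak in either mock list. Of the 1537 CP190 regions without an overlapping CLAMP region, 7 (0.455%, 0.221 to 0.937) met none. The count in close pairs was 44 of 96 without CP190 replicate 2, 14 of 152 without CLAMP replicate 2, 1 of 11 in lists of equal length, and 1 of 19 when peaks had to reach 10 in −log10 q.

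**Figure D3:**
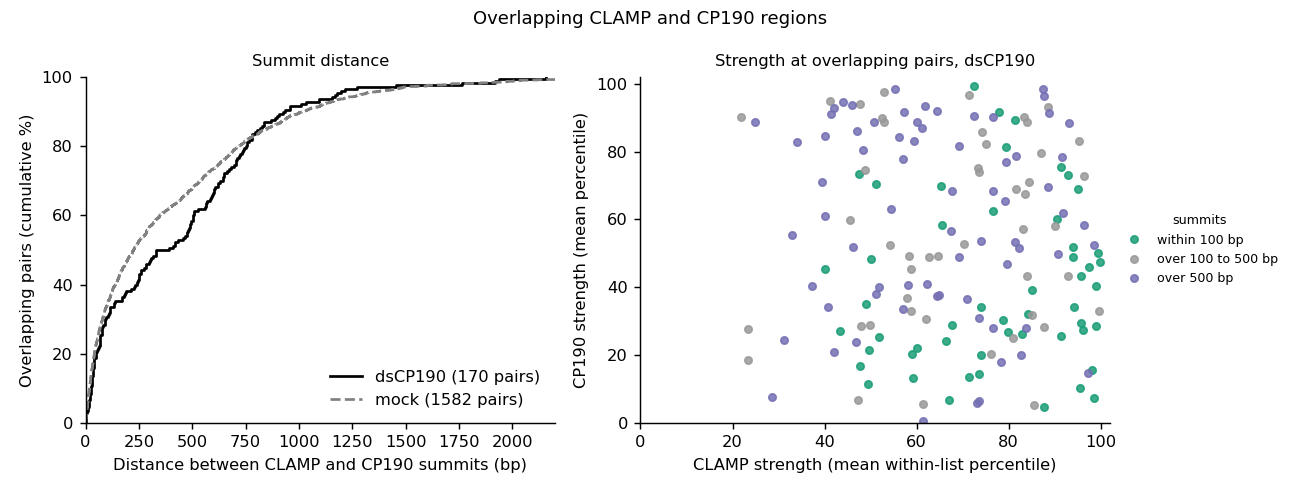
Left, cumulative percent of overlapping CLAMP and CP190 pairs by distance between summits (bp), in dsCP190 and mock cells; right, CLAMP and CP190 strength (mean within-list percentile) of each of the 170 dsCP190 pairs, coloured by summit distance. Pairs within 100 bp lie mostly at high CLAMP and low CP190 strength (medians 79.1 and 33.2).

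Regions named here and below were limited to those within 500 bp of the end of a gene that carries a name rather than only a CG or CR number, so pairs and regions elsewhere, some of them closer, farther apart or stronger, are not named. A pair takes its name from a gene end near 1 of its summits, and the other summit can lie elsewhere. Among pairs limited to named gene ends, the closest was at Psc. At this gene, which encodes a subunit of Polycomb repressive complex 1, the summits were 9 bp apart (2R:12979730-12981479). Its fold enrichment, the authors' value for each peak against background, was 22.8 and 12.9 in the CLAMP lists and 3.46 and 3.10 in the CP190 lists. These rest on 240 and 140 CLAMP fragments and 47 and 35 CP190 fragments. Vsx1, a homeobox gene of the visual system, had summits 15 bp apart (X:5593692-5594451), a CLAMP fold of 33.4 and 28.6 and a CP190 fold of 5.89 and 3.26. The latter came from 49 and 21 fragments over backgrounds of 7.49 and 5.76. At ss (spineless), a bHLH-PAS transcription factor gene, the distance was also 15 bp, and the CP190 fold was 2.67 and 2.64. None of Psc, Vsx1 and ss had a CP190 peak in either mock list. The other 2 of the 5 closest pairs at named gene ends were at not, which encodes a ubiquitin protease of the SAGA complex, and Vha68-2, a subunit of the vacuolar proton pump. Both had CP190 peaks in both mock lists, with folds of 28.2 and 18.8 at not.

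Among pairs at named gene ends, the farthest summits lay at cbt, 14-3-3epsilon, Trf2, eIF4A and nocte, from 2159 down to 1216 bp. At Trf2, which encodes a TBP-related general transcription factor, the CLAMP fold was 30.4 and 12.8 and the CP190 fold 3.63 and 7.94, with summits 1455 bp apart (X:8408742-8412118). At 14-3-3epsilon, a phosphoserine-binding adaptor gene, CP190 was strong, at 8.08 and 22.5, beside a CLAMP fold of 11.9 and 5.54. Each of these spans is 1 chain of overlapping peaks that holds the region summits of both antibodies. As means over 2 lists, region summits can fall between called summits.

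Fewer genes had CLAMP than CP190 at an end. CLAMP regions marked 300 genes (2.15% of all), CP190 regions 1779 (12.8%) and both antibodies 97 (0.697%). The shared genes were 32.3% of CLAMP genes and 5.45% of CP190 genes. CLAMP alone marked 1.46% and CP190 alone 12.1% of genes. In mock cells the shares were 11.9%, 48.1% and 9.04%. Without CLAMP replicate 2 the count was 1064 for CLAMP and 367 for both, and without CP190 replicate 1 it was 3238 for CP190 and 146 for both. CLAMP genes were long, with a median of 6135.5 bp against 3486 bp for CP190 genes and 2163 bp for all genes.

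At named gene ends, the 10 strongest regions with CLAMP and no CP190 peak were at mid, Dr, btd, oc, grn, Ptx1, otp, Sox21b, tup and ems. Each of these 10 genes encodes a DNA-binding transcription factor, which is given as a description of the 10 and was not tested. The first of these, mid (midline), a T-box gene, had a CLAMP fold of 33.4 and 15.4 from 191 and 120 fragments (2L:5460970-5461818). Dr (Drop), a homeobox gene, had 20.5 and 21.4 (3R:29555814-29556635). At btd (buttonhead), an Sp-type zinc finger gene of the head, the fold was 20.9 and 17.0 from 264 and 185 fragments (X:9693571-9694334). The same regions were bound in mock cells, with CLAMP folds from 12.5 to 37.3. Dr had a weak CP190 peak (3.19) in 1 mock list and the other 9 had none.

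At named gene ends, the 10 strongest regions with CP190 and no CLAMP peak belonged to genes of mixed function, raskol, cv-c, TER94, tara, Atet, dnc, Sirup, Rip11, htk and ct. raskol, a Ras GTPase-activating protein gene, had a CP190 fold of 27.0 and 39.3 from 195 and 275 fragments (X:17751321-17752397). TER94, the fly gene of the AAA ATPase p97, had 25.3 and 34.9 (2R:9988331-9989546). ct (cut) is a homeobox gene, with 20.5 and 23.0. Weak CLAMP peaks were called in mock cells at cv-c, TER94, Rip11 and htk, with folds of 1.70 to 3.38.

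The 10 strongest shared regions at named gene ends were at dco, Uba1, Dlg5, dx, fs(1)h, Glyp, ftz-f1, Pits, par-1 and NFAT. In the pair named dx, the CP190 summit was within 500 bp of an end of RpL7A, which had no CLAMP summit at an end. At dco, the casein kinase gene of the circadian clock, the CLAMP fold was 17.7 and 8.03 and the CP190 fold 17.6 and 26.3, with summits 619 bp apart (3R:31060268-31061931). At fs(1)h, which encodes the fly BET bromodomain protein, CLAMP gave 16.9 and 15.4 and CP190 6.76 and 14.2, 477 bp apart (X:8060571-8061987). At ftz-f1, a nuclear receptor gene, the summits were 78 bp apart, the only one of these 10 named pairs within 100 bp. The distances in the other 9 ran from 215 bp at Glyp to 896 bp at dx.

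**Figure D4:**
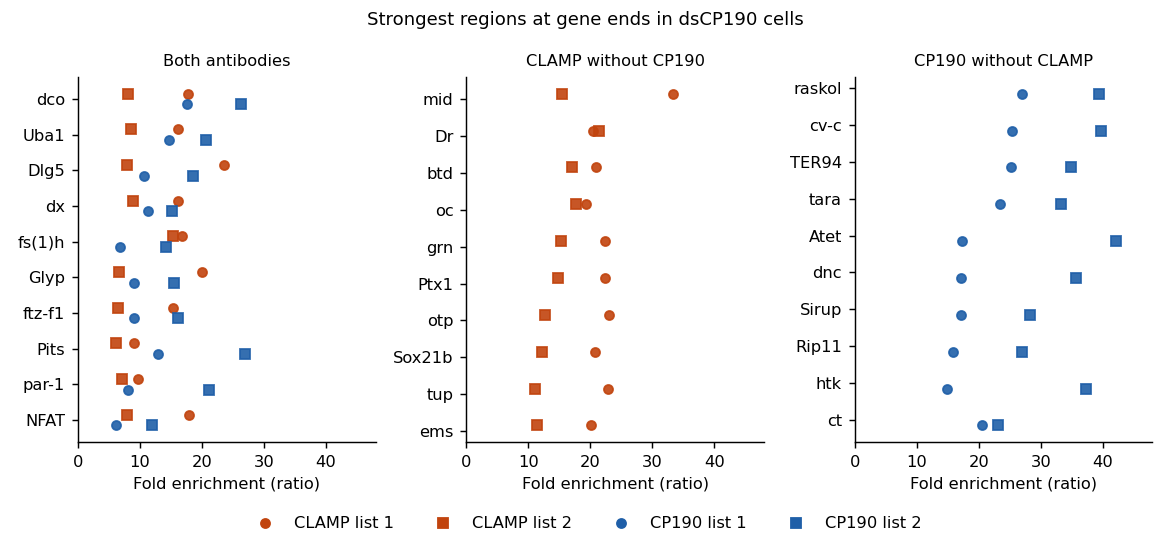
Fold enrichment (the authors' value per peak, a ratio, linear axis) of the strongest shared, CLAMP only and CP190 only regions at named gene ends in each dsCP190 list; each point is 1 list, and folds rank regions only within a list. The CLAMP only regions are at transcription factor genes led by mid (33.4 and 15.4), and the CP190 only regions are led by raskol (27.0 and 39.3).

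Among gene lists, reproducible dsCP190 regions set homeobox genes with CLAMP and ribosomal protein genes with CP190. The ribosomal protein genes also had CLAMP in the first dsCP190 list and in mock cells, as given below. Outside the Hox complexes, 25 of 50 homeobox genes had CLAMP at an end, where 2.15% of all genes did, and 7 had CP190, a share (14.0%) near the 12.8% of all genes. The 25 genes rest on 26 CLAMP regions and the count was 29 and 26 in the single CLAMP lists, which marked 7.64% and 2.21% of all genes, and 30 in mock cells. Leading members were Vsx1, unc-4, E5 and caup. E5, a homeobox gene beside ems, had a CLAMP fold of 24.6 and 27.3 and a CP190 fold of 3.82 and 3.71. caup (caupolican), of the Iroquois complex, had 24.0 and 24.9 beside 2.88 and 3.78. CP190 was called at neither in mock cells. Of the genes listed in the Hox complexes, 5 of 11 had CLAMP at an end, led by Scr (19.7 and 9.39) and lab (13.8 and 10.1). At an end, 1 had CP190, bcd, and regions inside genes are not counted here. Among T-box and Sox genes CLAMP was at 4 of 16, mid, SoxN, Sox21b and Doc2, and at 7 without CLAMP replicate 2. CP190 was at none of the 16 in both lists.

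Of the 93 ribosomal protein genes, 46 had CP190 at an end, from 50 regions, and none had the summit of a reproducible CLAMP region there. Of all genes 12.8% had CP190 and 2.15% had CLAMP. The count of CP190 was 46 and 64 in the single lists, which marked 13.9% and 23.3% of all genes. That of CLAMP was 23 in the first list and 0 in the second, where 7.64% and 2.21% of all genes were marked. The absence of CLAMP thus rests on the short list. In mock cells 42 of the 93 (45.2%) had CLAMP, beside 11.9% of all genes, and 79 (84.9%) had CP190, beside 48.1%. RpL17 led, with a CP190 fold of 15.4 and 29.3 from 172 and 270 fragments (X:6743739-6744828). RpS28a had 15.7 and 22.4, beside a CLAMP fold of 6.91 in the first list only. In lists of equal length CP190 was at 22 of the 93, where it marked 800 of all 13922 genes. Cell cycle and replication genes had CP190 at 13 of 29 (44.8%). CLAMP was at 1, dup, a share (3.45%) near the 2.15% of all genes. Without CLAMP replicate 2, CLAMP was at 9 of the 29, beside 7.64% of all genes. In lists of equal length CP190 was at 5 of the 29. fzr, an activator of the anaphase-promoting complex, had a CP190 fold of 15.2 and 18.7, and the replicative helicase gene Mcm7 had 8.22 and 14.8. Translation initiation factors had CP190 at 11 of 44 and CLAMP at 2, eIF4E1 and eIF4G2, both shared with CP190. These were 25.0% and 4.55%, beside the same 12.8% and 2.15% of all genes.

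Polycomb and trithorax group genes, which maintain silent and active states of developmental genes, had CLAMP at 7 of 25 and CP190 at 7 of 25, with 2 in common. The same 28.0% stands beside 2.15% of all genes for CLAMP and 12.8% for CP190. CLAMP was strong at Psc, ph-d (23.9 and 10.2) and Su(z)2 (17.0 and 10.1). CP190 was strong at trx (10.2 and 14.8) and Pc (7.13 and 9.03). Both of the last are founding members of the groups. Heat shock genes had CLAMP at 3 of 20, Hsp68, Hsp27 and Hsp70Ba, and CP190 at 1, DnaJ-1, beside those same shares of all genes. Hsp70Ba has near-identical copies, so its value is uncertain.

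For the remaining lists the shares of all genes are again 2.15% for CLAMP and 12.8% for CP190. CP190 was at 12 of 73 mitochondrial ribosomal protein genes, 9 of 48 proteasome genes, 4 of 21 splicing genes, 3 of 23 insulator protein genes and 4 of 24 Notch pathway genes. CLAMP was at 1, 1, 0, 1 and 2 of these. Ecdysone response genes had CLAMP at 2 and CP190 at 3 of 14. Marker genes of hemocytes, the blood cell type Kc167 resembles, had CLAMP at 1 and CP190 at 3 of 17. Neuronal and glial markers had 2 and 1 of 14, muscle markers 0 and 2 of 14, and germline markers 0 and 0 of 11. CLAMP was at 2 and CP190 at 0 of 111 replication-dependent histone genes, whose repeated copies share reads.

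**Figure D5:**
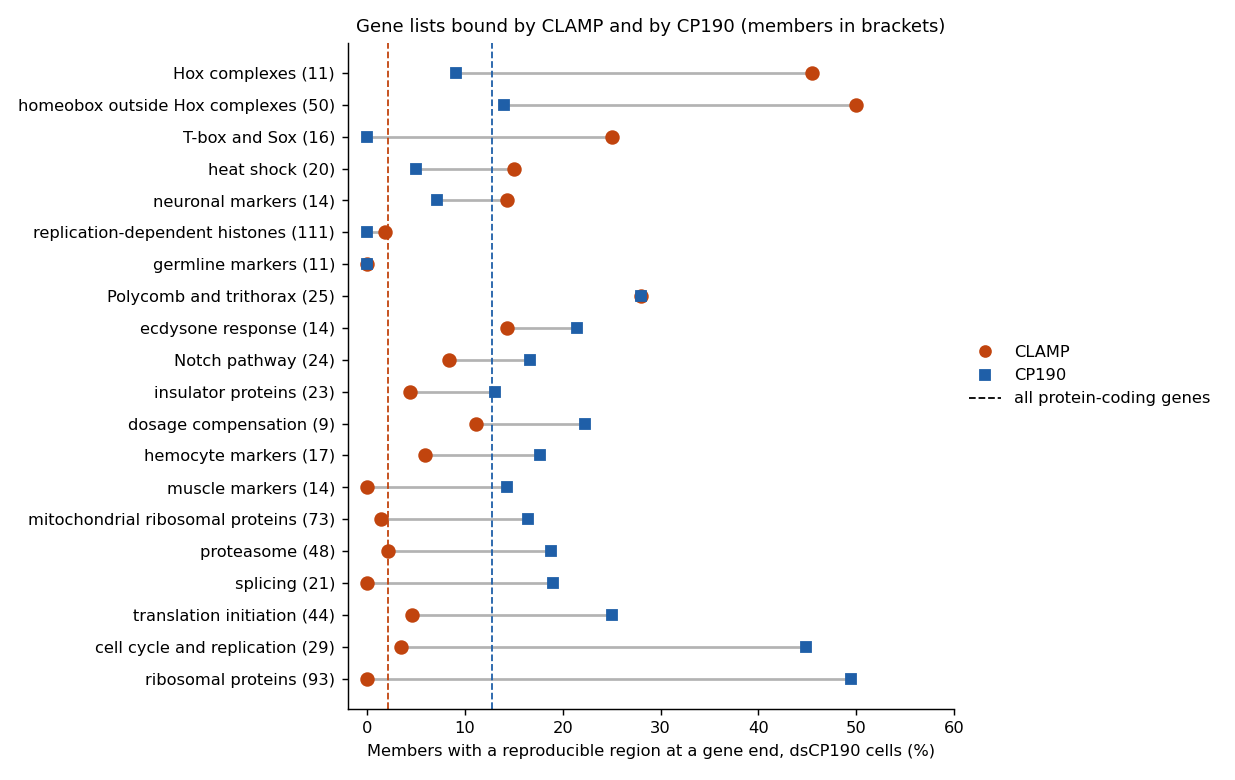
Percent of each list's genes with a reproducible CLAMP or CP190 region within 500 bp of an end in dsCP190 cells, with the share of all genes as lines (2.15% and 12.8%). Homeobox and Hox genes stand highest for CLAMP (25 of 50 and 5 of 11), and ribosomal protein and cell cycle genes for CP190 (46 of 93 and 13 of 29).

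Of the 9 protein-coding dosage compensation genes, CLAMP was at 1 and CP190 at 2, where 2.15% and 12.8% of all genes were marked. The genes roX1 and roX2, whose noncoding RNAs are part of the male complex, had reproducible CP190 regions, with folds of 6.30 and 10.5 at roX1 (X:3862309-3863020) and 10.8 and 15.4 at roX2 (X:11580213-11581323). In dsCP190 cells CLAMP was called at roX2 in the first list only, at 4.34 from 31 fragments. Both mock lists had CLAMP there, at 5.71 and 6.07. Sxl, the switch gene of sex determination, had CP190 at 7.85 and 15.7 and no dsCP190 CLAMP peak. Weak CLAMP peaks were called there in both mock lists, at 1.73 and 1.51. The Clamp gene had CLAMP, at 7.95 and 4.95, and no dsCP190 CP190 peak. Cp190, the targeted gene, had a CP190 peak in the second list only, at 3.29 from 26 fragments, and no CLAMP peak.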

How the data were processed

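The authors deposited 1 narrowPeak list per immunoprecipitation, called per library. Per the submitters' processing notes, the tools were MACS2 2.1.1.20160309, Bowtie2 2.3.4.1, cutadapt 1.16, deepTools 3.0.2 and Picard 2.18.9, with build dm6. The control and the settings of peak calling are not given in sources used here. The deposited values are a score, a fold enrichment (ratio) and −log10 p and q per peak, used only within a list. Whole fragment numbers were recovered from deposited fold and p (tolerance 0.002 on −log10 p) for 100% of dsCP190 peaks. Regions needed a 1 bp overlap. Genes came from RefSeq Release 6 by symbol. Named regions were ranked by mean within-list percentile of fold, by group, at symbol-named genes, plus Cp190, Clamp, roX1, roX2, Sxl, up to 4 members of each gene list, and the closest, farthest and widest regions. Scripts ran in Python 3.11.15 with pandas 2.3.3 and scipy 1.17.1 and were tested on simulated data. Members, lists and tests were chosen with earlier results of these data known. The planned promoter motif and gene start counts were not run, since neither sequence nor strand was used here. CLAMP knockdown is named in the series' design text, whereas the sample labels, which were followed, name CP190. List values were compared by exact permutation, and alternatives covered thresholds, list length, overlap, window, replicates and pairing.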

Additional observations from a re-analysis of the deposited data

Results flagged for a closer look

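The strength of CP190 regions that overlap CLAMP, against those that met no CLAMP peak, had opposite directions in dsCP190 and mock cells in every list. The median percentile of fold enrichment was lower by -13.6 and -12.2 points in the dsCP190 lists, and higher by 16.6 and 15.3 points in the mock lists. The difference between treatments was not tested. With the mock lists cut to 901 peaks, the length of the shortest dsCP190 list, the mock value was -12.2, and with the dsCP190 lists cut to that length theirs was 1.94. List length therefore moves with the direction, and its part in the result was not tested further.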

How the results depend on the processing

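The list differences in gene ends, inside-gene and X shares kept their direction under all alternatives run. The width difference turned to 32.25 bp without CLAMP replicate 2 and 31.5 bp without CP190 replicate 2 (leaving out 1 library gave -40.75 to 32.25), and spacing to -21629 bp with lists cut to the shortest and -8911.75 bp without CLAMP replicate 2 (-8911.75 to 29858.2). Peak number under equal lengths has no value, being equal by construction. The CLAMP share overlapping CP190 was 13.1% at −log10 q of 10, 8.62% with cut lists, 10.3% at 50% overlap, 6.29% with summits within 100 bp, and 15.6 to 27.6% leaving out 1 library. For CP190 the same gave 7.18, 7.76, 4.98, 3.05 and 7.78 to 24.3%. Summit distance was 134 bp at 50% overlap, 36.5 bp with summits within 100 bp, and 176 to 327 bp leaving out 1 library. With summits within 100 bp the median cannot exceed 100 bp, by construction. CLAMP genes numbered 175 and 514 with windows of 250 and 1000 bp, and 308 to 1064 leaving out 1 library. CP190 genes numbered 1050 at −log10 q of 10, 800 with cut lists, and 1936 to 3238. Genes of both numbered 45, 43, 40 and 228 under those settings and windows, and 100 to 367. The CP190 strength difference of -15.5 was -11.8 with any CLAMP peak as shared, 1.94 with cut lists, and -20.3 to -8.84 leaving out 1 library. The close-pair gap turned to -6.08 without CLAMP replicate 2 (-6.08 to 61.0 leaving out 1 library). The alternatives on close pairs, strength and gene lists were chosen after seeing the data. The cause of these shifts was not tested, except that shorter lists hold fewer regions. The labels do not tell if libraries with the same replicate number share a culture. The log2 fold difference, list 1 minus list 2, had a correlation of -0.0216 between antibodies over 170 overlapping pairs. These are loci and not replicates, so the value cannot decide on pairing. A replicate block kept each difference, for example -35.4 points at gene ends, with 0.5 as the smallest p of 2 pairs. Depth limits weak peaks: an uncalled peak is not shown to be absent.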

Other observations

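The genes that held the most regions were picked after their values were seen. InR, the insulin receptor gene, Tlk, a chromatin kinase gene, and psq (pipsqueak), a BTB DNA-binding factor gene, each held 6 CLAMP regions, and Snap25, a synaptic fusion gene, held 5, while CLAMP regions inside genes were spread over 340 host genes. CP190 regions inside genes had at most 4 in 1 gene, at Eip75B, Snap25 and pnt, among 278 host genes. The densest windows of 50 kb held 7 CLAMP regions at lola and psq on 2R and 7 on X, against at most 6 CP190 regions. The window on X took in the Polycomb genes ph-d and ph-p and also D2hgdh, Pgd, bcn92 and wapl.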
